A study of Homo sapiens with 10 samples.

Results

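The genes described here encode the cytosolic HSP90 chaperones, 6 of the co-chaperones that work with them, and a pair of heat shock transcription factors. They are HSP90AA1, HSP90AB1, AHSA1, STIP1, CDC37, PTGES3, FKBP4, CHORDC1, HSF1 and HSF2, and they were taken by gene symbol, so that 10 of the 28380 genes counted were members. The data came from RPE-1, a line of human retinal pigment epithelial cells immortalized with telomerase. Replicates of 50000 cells were treated for 4 h with 25 µM sulforaphane (SFN), an electrophilic isothiocyanate from cruciferous vegetables, or with its vehicle DMSO, with 5 replicates in each group and no other genotype or agent. RNA was sequenced from transcript 3′ ends (Lexogen QuantSeq), and the deposited counts per gene were compared between SFN and DMSO to ask which parts of the HSP90 machine had different mRNA levels after SFN. All 10 members passed the filter on low counts, which left 13378 genes.

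HSP90 is an ATP-driven dimeric chaperone that acts late in folding, on kinases, steroid receptors and other client proteins that other chaperones have already handled. Co-chaperones load clients, set the pace of ATP hydrolysis or hold the dimer in a given state. HSF1 is the main activator of heat shock genes, and it is held inactive in part by HSP90 and other chaperones, the genes of which are among its targets. In stressed cells HSF1 forms trimers that bind heat shock elements, which are inverted repeats of the letters GAA.

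Of the 10 members, 5 were significantly increased by SFN, 0 were decreased and 5 were not called, by edgeR's quasi-likelihood test with a Benjamini-Hochberg adjusted p under 0.05 over all genes tested. In all, 23.0% of tested genes were called, 9.07% as increased and 13.9% as decreased. The increased members were the co-chaperone genes CHORDC1 (2.94-fold), AHSA1 (2.38-fold), STIP1 (1.74-fold), PTGES3 (1.61-fold) and CDC37 (1.38-fold), of which the first 2 were over 2-fold, as were 2.94% of all tested genes in that direction and 8.69% in either. Every SFN library was above every DMSO library for these 5 members, and the groups did not overlap for 19.9% of tested genes. The chaperone genes HSP90AA1 and HSP90AB1 were not called over all 10 libraries, and both were called as increased when DMSO replicate 1 was left out, when 7 members were increased. Without that library 46.1% of tested genes were called, 22.5% as increased and 23.5% as decreased. FKBP4, HSF1 and HSF2 were not called in either case. The spread of HSP90AA1 in DMSO was known beforehand, so calls without DMSO replicate 1, here and below, are a description and not independent support. The median log2 fold change was 0.46 over the members and -0.03 over all tested genes.

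DMSO replicate 1 stood apart from the other libraries. Across genes, its Spearman correlation with DMSO replicates 2 to 5 averaged 0.935, where each of those averaged 0.979 to 0.982 with the rest of its group, and HSP90AA1 alone took 2.01% of its counts. Total counts ranged from 15689294 to 20666692 in DMSO and from 12375860 to 17308706 in SFN, and no replicates differed by as little as sampling noise. Of markers of the tissue, the pigment epithelium genes RPE65, RLBP1, TYRP1 and TTR had at most 4 counts in any library, while OTX2 (8.69 to 17.7 CPM, which are counts for every 1000000 counts of a TMM-scaled library), MITF (18.7 to 55.1 CPM), BEST1, KRT8, KRT18 and VIM were present in every library. BEST1 ranged widely, from 5.42 to 107 CPM. These ranges span both groups, so they can include differences between SFN and DMSO. The leukocyte and endothelial markers PTPRC, CD68 and PECAM1 had at most 13 counts. Nothing in the labels says that replicates were separate cultures. The paper's methods give 50000 cells for each RNA-seq replicate and describe the study's experimental data in general as from independent replicates. Whether these replicates were separate experiments is not stated, so p-values cover the spread between these libraries, which may be technical. In bulk RNA, fewer cells of a kind and less RNA per cell cannot be told apart.

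**Figure D1:**
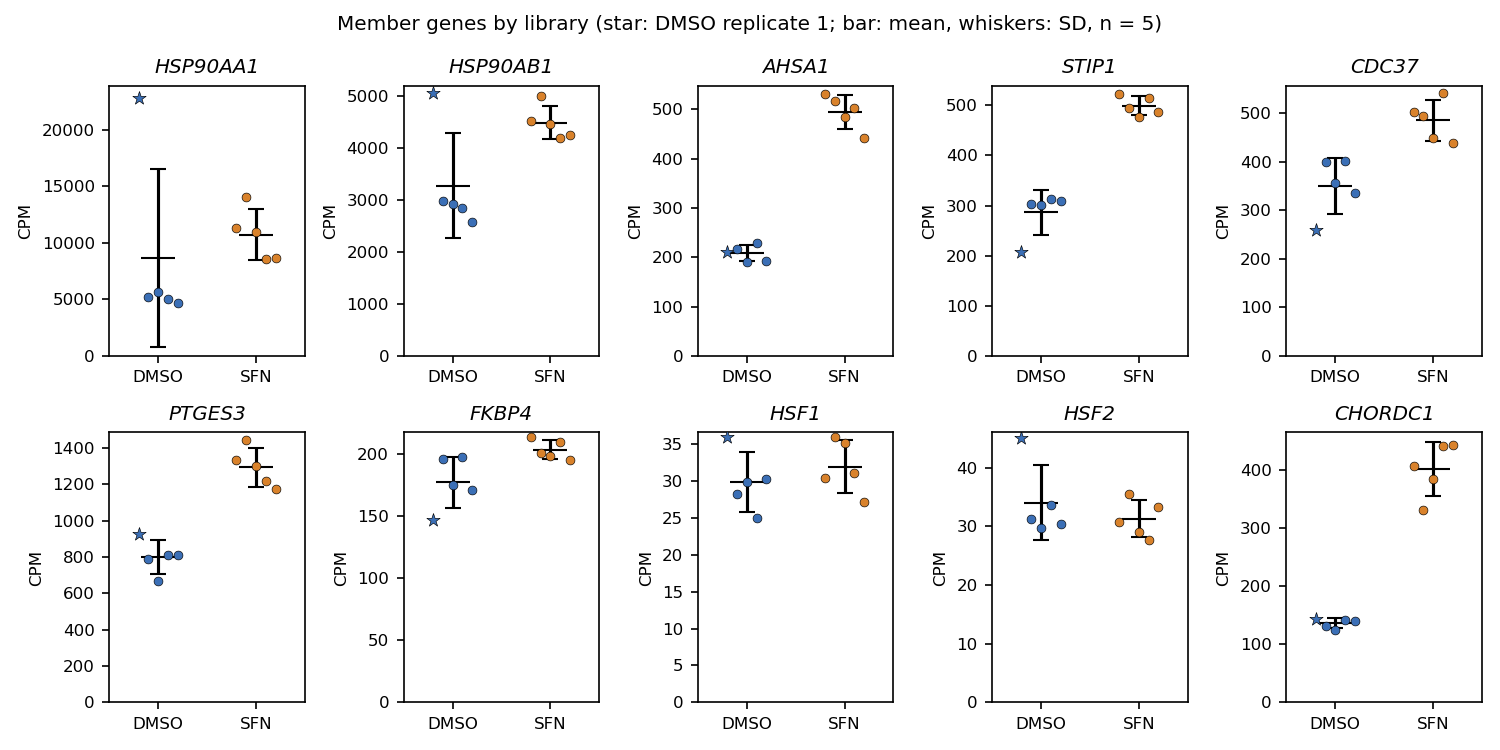
CPM of the 10 members in each library, with DMSO in blue and SFN in orange, DMSO replicate 1 as a star, and the mean and SD of each group (n = 5) as bars. Every SFN library lies above every DMSO library for AHSA1, STIP1, CDC37, PTGES3 and CHORDC1, and the star is the highest of all 10 points for HSP90AA1, HSP90AB1, HSF2 and, level with SFN replicate 2, HSF1.

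HSP90AA1 (ENSG00000080824) encodes HSP90α, the stress-inducible cytosolic form. On GRCh38 it occupies chromosome 14 from 102080742 to 102139699 on the minus strand, and the main transcript of its annotation starts at 102087044. The 250 bases before that start are shown because they held matches to the heat shock element motif, with the matched letters in capitals. The sequence is chr14:102087045-102087294 of the minus strand, from RefSeq's GRCh38.p14 promoters.
HSP90AA1: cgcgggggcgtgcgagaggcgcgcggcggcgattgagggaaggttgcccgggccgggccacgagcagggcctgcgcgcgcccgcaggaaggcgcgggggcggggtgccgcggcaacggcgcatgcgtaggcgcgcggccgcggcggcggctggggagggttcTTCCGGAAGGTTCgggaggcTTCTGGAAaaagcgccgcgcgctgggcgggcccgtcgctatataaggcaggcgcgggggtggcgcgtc
The capitals mark a run of 3 units, TTCNNGAANNTTC, from 88 to 76 bases before the start, and a run of 2 units, TTCNNGAA, from 68 to 61 bases before it.

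HSP90AA1 measured 22764, 5182, 5642, 5001 and 4722 CPM in DMSO replicates 1 to 5. Its level in SFN replicates 1 to 5 was 11324, 14036, 10934, 8608 and 8653 CPM. The 5 SFN libraries were each above DMSO replicates 2 to 5 and below DMSO replicate 1. The level was thus 8662 ± 7890.2 CPM (SD, n = 5) in DMSO and 10711 ± 2244 CPM (SD, n = 5) in SFN, and the log2 fold change was 0.31 (standard error, SE, 0.43, 95% interval -0.63 to 1.24, edgeR quasi-likelihood adjusted p = 0.668). Without DMSO replicate 1 the DMSO level was 5137 ± 386 CPM and the log2 fold change was 1.05 (SE 0.13, adjusted p = 2.8e-05), a 2.08-fold difference. Leaving out DMSO replicate 2, 3, 4 or 5 instead gave 0.15 to 0.18, and leaving out SFN replicate 2 gave 0.20. The spread of HSP90AA1 in DMSO was known when the genes were chosen. The result without DMSO replicate 1 is therefore a description and not independent support. Quantile-normalized limma-voom over all libraries gave 0.56 (limma adjusted p = 0.105). The raw counts behind these values ran from 79771 to 365542, so counting error was small beside the spread between libraries.

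HSP90AB1 (ENSG00000096384) encodes HSP90β, the form that cells make without stress. It is on chromosome 6 of GRCh38, from 44246166 to 44253888 on the plus strand. The 250 bases before its main start at 44247101 held no match to the motif, whereas those before a start inside the first part of the gene, in an intron of the main transcript, held 2 runs of 3 units. The latter sequence is chr6:44247693-44247942 of the plus strand, with the matches at 165 to 153 and at 112 to 100 bases before the internal start in capitals.
HSP90AB1 internal start: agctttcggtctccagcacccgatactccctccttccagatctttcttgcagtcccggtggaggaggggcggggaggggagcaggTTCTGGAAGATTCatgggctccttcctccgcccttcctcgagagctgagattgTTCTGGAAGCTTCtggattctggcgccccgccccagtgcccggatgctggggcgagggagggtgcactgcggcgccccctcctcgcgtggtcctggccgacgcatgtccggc
Whether that start was used in these cells was not measured, since the counts are per gene.

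HSP90AB1 measured 5051, 2980.5, 2927, 2835 and 2578.5 CPM in DMSO replicates 1 to 5. SFN replicates 1 to 5 measured 4524, 4991, 4468, 4189.9 and 4241 CPM. As with HSP90AA1, all SFN libraries were above DMSO replicates 2 to 5 and below DMSO replicate 1. The level was 3274 ± 1005 CPM in DMSO and 4483 ± 318 CPM in SFN (SD, n = 5 each), with a log2 fold change of 0.45 (SE 0.18, 95% interval 0.06 to 0.84, edgeR quasi-likelihood unadjusted p = 0.026 and adjusted p = 0.090). Without DMSO replicate 1 the log2 fold change was 0.66 (SE 0.08, adjusted p = 2.1e-05), a 1.58-fold difference. DMSO replicate 1 was also far from the other DMSO libraries for HSP90AB1, so this value is a description and not independent support. With quantile-normalized limma-voom, the alternative nearest to the authors' method, the log2 fold change over all libraries was 0.14 (limma adjusted p = 0.481).

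Whether the genes for the α and β forms changed unequally was tested with the ratio of HSP90AA1 to HSP90AB1 counts, which needs no scaling between libraries. It is a ratio of counts, not of transcripts, and is used only to compare libraries. The ratio was 4.51, 1.74, 1.93, 1.76 and 1.83 in DMSO replicates 1 to 5 and 2.50, 2.81, 2.45, 2.05 and 2.04 in SFN replicates 1 to 5. Every SFN ratio was above those of DMSO replicates 2 to 5 and below that of DMSO replicate 1. On the log2 scale the mean was 1.12 ± 0.59 in DMSO and 1.23 ± 0.20 in SFN (SD, n = 5 each), and the difference of 0.11 was within this spread (two-sided exact permutation test over 252 splits, p = 0.770, adjusted over the 2 ratios tested p = 0.770, smallest p possible 0.00794). Without DMSO replicate 1 the log2 difference was 0.38 (exact permutation p = 0.0238, not adjusted). The spread of HSP90AA1 in DMSO was known beforehand, so this value is a description and not independent support.

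**Figure D2:**
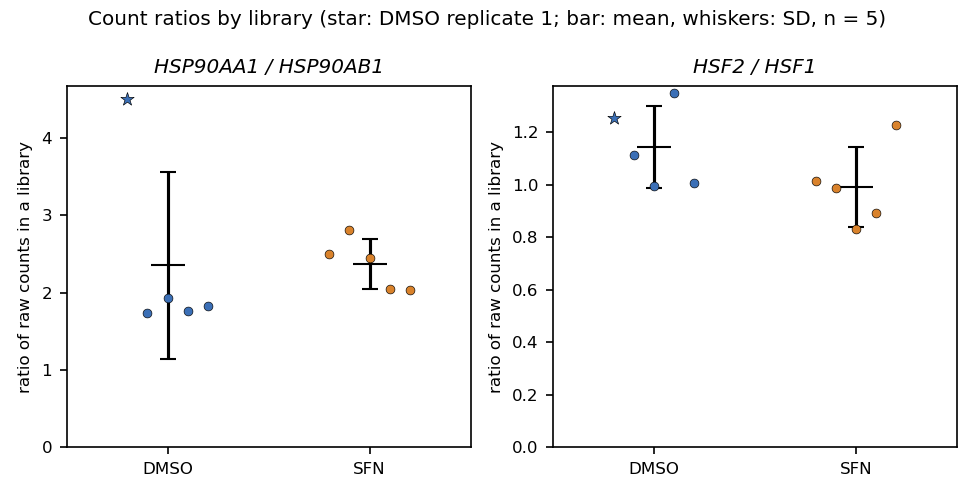
Ratio of raw HSP90AA1 to HSP90AB1 counts (left) and of raw HSF2 to HSF1 counts (right) in each library, with DMSO in blue, SFN in orange, DMSO replicate 1 as a star, and the mean and SD of each group (n = 5) as bars. The left ratio is 4.51 in DMSO replicate 1 and between 1.74 and 1.93 in the other DMSO libraries, and the right ratios of the groups overlap.

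CHORDC1 (ENSG00000110172) had the largest fold change of the members. It encodes a zinc-binding HSP90 co-chaperone with CHORD domains, and is on chromosome 11 of GRCh38, from 90200429 to 90223077 on the minus strand. The 250 bases before its start are chr11:90223050-90223299 of the minus strand. They are shown because they held the longest run of heat shock element units among the members searched. That run is in capitals from 60 to 38 bases before the start.
CHORDC1: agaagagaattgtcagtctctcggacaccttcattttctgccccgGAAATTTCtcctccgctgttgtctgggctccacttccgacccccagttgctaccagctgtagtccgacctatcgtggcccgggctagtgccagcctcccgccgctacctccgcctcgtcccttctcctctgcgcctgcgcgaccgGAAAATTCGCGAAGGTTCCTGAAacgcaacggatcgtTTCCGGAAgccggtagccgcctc
The other capitals are runs of 2 units from 205 to 198 and from 23 to 16 bases before the start.

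CHORDC1 measured 145, 131, 125, 143 and 140.4 CPM in DMSO replicates 1 to 5. In SFN replicates 1 to 5 it measured 408, 331, 386, 443 and 444 CPM. The lowest SFN library was more than 2-fold above the highest DMSO library, and DMSO replicate 1 was close to the other DMSO libraries. The level rose from 137 ± 8.29 to 402 ± 46.8 CPM (SD, n = 5 each), with a log2 fold change of 1.56 (SE 0.11, 95% interval 1.31 to 1.80, edgeR quasi-likelihood adjusted p = 2.6e-06). The increase was larger than that of 98.4% of tested genes.

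AHSA1 (ENSG00000100591) encodes AHA1, the co-chaperone that speeds ATP hydrolysis by HSP90. It is on chromosome 14 of GRCh38, from 77457870 to 77469472 on the plus strand. The bases before its main start, chr14:77457843-77458092 of the plus strand, are shown beside those of CHORDC1 because AHSA1 was also over 2-fold higher in SFN and this window held no match to the motif.
AHSA1: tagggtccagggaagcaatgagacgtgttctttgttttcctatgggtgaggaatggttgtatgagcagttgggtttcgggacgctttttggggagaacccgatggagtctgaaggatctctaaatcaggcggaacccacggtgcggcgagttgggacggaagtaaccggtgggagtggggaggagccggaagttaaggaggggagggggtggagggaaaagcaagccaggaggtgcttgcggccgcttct
The absence of a match says only that those letters are not in this window.

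AHSA1 measured 211, 218, 191, 228 and 192 CPM in DMSO replicates 1 to 5. Its level in SFN replicates 1 to 5 was 530.3, 517, 484, 502 and 442 CPM. The groups were far apart and the libraries within each were close together, DMSO replicate 1 included. The level rose from 208 ± 16.3 to 495 ± 34.1 CPM (SD, n = 5 each), with a log2 fold change of 1.25 (SE 0.10, 95% interval 1.03 to 1.47, edgeR quasi-likelihood adjusted p = 6.3e-06). It was 1.25 without DMSO replicate 1 as well.

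Across the 8 members with a promoter in the RefSeq table, the 2-unit motifs GAANNTTC and TTCNNGAA were in 2 of the 8 windows at the main start, and the 3-unit motifs GAANNTTCNNGAA and TTCNNGAANNTTC were in the same windows, those of HSP90AA1 and CHORDC1. Over the windows at any start of these members, 3 of 14 held both kinds. Of 35116 windows of 250 bases over all genes, 11.6% held a 2-unit and 0.441% a 3-unit motif. A 3-unit match contains 2-unit matches, and these letters read from either strand give the same motifs. STIP1, CDC37, PTGES3 and HSF2 had no match in any window searched, while FKBP4 and HSF1 were not searched.

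STIP1 (ENSG00000168439, chromosome 11 of GRCh38, 64185272 to 64204543, plus strand) encodes HOP, the adaptor that bridges HSP70 and HSP90 and so passes clients on. It measured 207, 303, 301, 313 and 309.6 CPM in DMSO replicates 1 to 5. SFN replicates 1 to 5 measured 523, 495, 477, 515 and 487 CPM. DMSO replicate 1 was the lowest library, in contrast to its place for the chaperone genes, and the groups did not overlap. The level rose from 287 ± 44.9 to 499.5 ± 19.1 CPM (SD, n = 5 each), with a log2 fold change of 0.80 (SE 0.12, edgeR quasi-likelihood adjusted p = 7.0e-04) and of 0.70 without DMSO replicate 1.

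PTGES3 (ENSG00000110958, chromosome 12 of GRCh38, 56663341 to 56688408, minus strand) encodes p23, which binds the closed, ATP-bound dimer and slows hydrolysis. It measured 928, 786, 669, 808 and 811 CPM in DMSO replicates 1 to 5. In SFN replicates 1 to 5 it measured 1329.9, 1445, 1298, 1218 and 1172 CPM. The highest DMSO library, replicate 1, was still below every SFN library. The level rose from 800.6 ± 92.1 to 1293 ± 106 CPM (SD, n = 5 each), with a log2 fold change of 0.69 (SE 0.12, edgeR quasi-likelihood adjusted p = 0.0011) and of 0.74 without DMSO replicate 1.

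CDC37 (ENSG00000105401, chromosome 19 of GRCh38, 10391133 to 10420121, minus strand) encodes the co-chaperone that brings protein kinases to HSP90. It measured 259.9, 399, 355, 401 and 335 CPM in DMSO replicates 1 to 5. Its level in SFN replicates 1 to 5 was 501, 494, 448, 542 and 439 CPM. DMSO replicate 1 was the lowest library, and the gap between the groups was narrow, from 401 CPM in DMSO to 439 CPM in SFN. The level rose from 350.3 ± 57.9 to 485 ± 41.9 CPM (SD, n = 5 each), with a log2 fold change of 0.47 (SE 0.13, edgeR quasi-likelihood adjusted p = 0.024). This was the least stable of the 5 calls. It was 0.37 (adjusted p = 0.0036) without DMSO replicate 1, and no longer called without DMSO replicate 5 (0.45, adjusted p = 0.058), SFN replicate 1 (0.46, adjusted p = 0.060) or SFN replicate 4 (0.43, adjusted p = 0.071).

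FKBP4 (ENSG00000004478, chromosome 12 of GRCh38, 2794970 to 2805423, plus strand) encodes FKBP52, a prolyl isomerase that joins HSP90 in steroid receptor complexes. It measured 147, 196, 175, 198 and 171 CPM in DMSO replicates 1 to 5. SFN replicates 1 to 5 measured 214, 201, 198, 209.6 and 195 CPM. The groups overlapped, with DMSO replicate 4 just above SFN replicate 5. The levels were 177 ± 20.6 and 204 ± 7.96 CPM (SD, n = 5 each), and the log2 fold change of 0.20 (SE 0.10, 95% interval -0.03 to 0.43) did not pass the test (edgeR quasi-likelihood adjusted p = 0.201). It was 0.14 (adjusted p = 0.160) without DMSO replicate 1. Antisense RNAs that overlap its exons had at most 59 counts in a library.

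**Figure D3:**
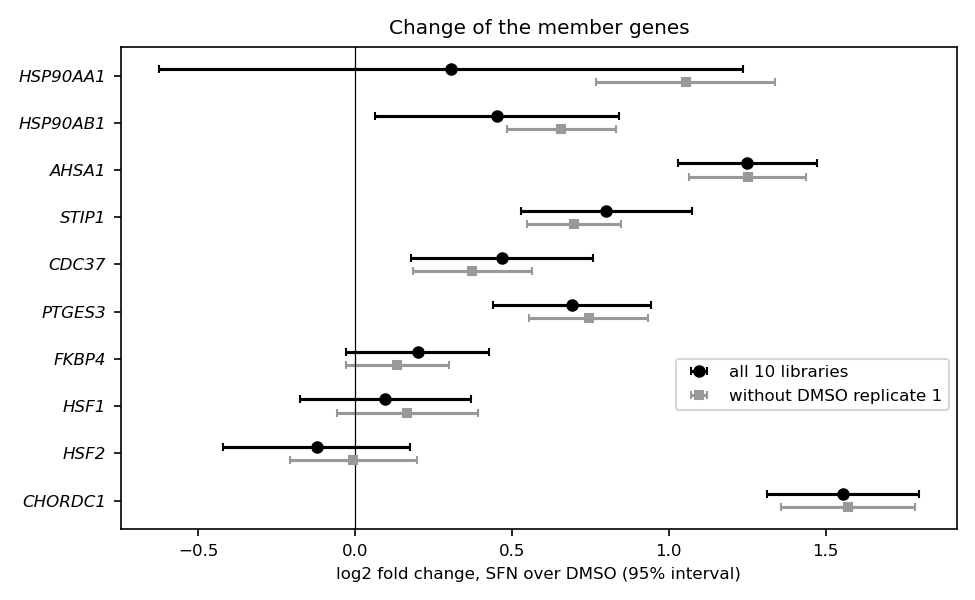
Log2 fold change of each member in SFN over DMSO with its 95% interval, over all 10 libraries (black circles) and without DMSO replicate 1 (grey squares). The interval of HSP90AA1 spans 0 over all libraries (-0.63 to 1.24) and lies between 0.77 and 1.34 without that replicate, while those of AHSA1 and CHORDC1 barely move.

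Of the factors, HSF1 (ENSG00000185122, chromosome 8 of GRCh38, 144291591 to 144314720, plus strand) is the main activator of heat shock genes. It measured 36.0, 28.2, 29.9, 25 and 30.2 CPM in DMSO replicates 1 to 5. In SFN replicates 1 to 5 it measured 30.3, 36.0, 35.1, 31.1 and 27.2 CPM. The ranges of the groups overlapped, with DMSO replicate 1 and SFN replicate 2 level at the top. The levels were 29.9 ± 4.01 and 31.9 ± 3.60 CPM (SD, n = 5 each), with a log2 fold change of 0.10 (SE 0.12, 95% interval -0.18 to 0.37, edgeR quasi-likelihood adjusted p = 0.640). Exons of HSF1 overlap those of DGAT1 on the other strand, which had at most 109 counts in a library, and whether the counting used strand was not given in the sources used here.

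HSF2 (ENSG00000025156, chromosome 6 of GRCh38, 122399551 to 122433119, plus strand) encodes a related factor that can form trimers with HSF1. It measured 45.1, 31.3, 29.7, 33.7 and 30.4 CPM in DMSO replicates 1 to 5. Its level in SFN replicates 1 to 5 was 30.8, 35.5, 29.1, 27.7 and 33.4 CPM. DMSO replicate 1 was the highest library and the other 9 lay between 27.7 and 35.5 CPM. The levels were 34.1 ± 6.38 and 31.3 ± 3.14 CPM (SD, n = 5 each), with a log2 fold change of -0.12 (SE 0.14, 95% interval -0.42 to 0.18, edgeR quasi-likelihood adjusted p = 0.585). It was -0.0057 (95% interval -0.21 to 0.20) without DMSO replicate 1.

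The ratio of HSF2 to HSF1 counts was 1.25, 1.11, 0.994, 1.35 and 1.01 in DMSO replicates 1 to 5 and 1.02, 0.986, 0.830, 0.892 and 1.23 in SFN replicates 1 to 5. The ratios of the groups overlapped. The log2 ratio was 0.21 lower in SFN, which a two-sided exact permutation test did not tell from the spread between libraries (p = 0.143, adjusted over the 2 ratios p = 0.286).

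The members did not deviate in a common direction in DMSO replicate 1. Relative to the mean of DMSO replicates 2 to 5, that library held 4.43 times the HSP90AA1 level, 1.78 times the HSP90AB1 level, 1.44 times the HSF2 level, 1.27 times the HSF1 level and 1.21 times the PTGES3 level. AHSA1 (1.02 times) and CHORDC1 (1.07 times) were at the level of the other DMSO libraries, and FKBP4 (0.797 times), CDC37 (0.697 times) and STIP1 (0.675 times) were below it. The 2 genes with the largest increases in SFN were thus those least displaced in this library, and the chaperone genes were the most displaced. Among all tested genes with a level in DMSO replicates 2 to 5, 26.1% were over 1.5 times that level in DMSO replicate 1 and 28.5% were under it by the same factor.

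**Figure D4:**
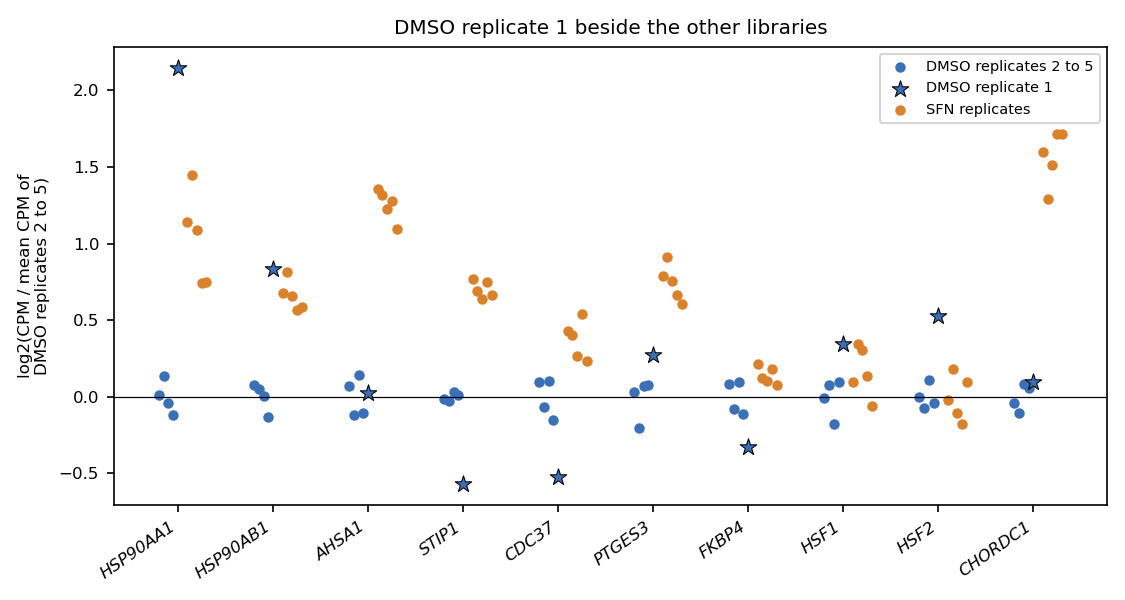
Level of each member in each library as log2 of its CPM over the mean CPM of DMSO replicates 2 to 5, with those replicates in blue, DMSO replicate 1 as a star and the SFN replicates in orange. The star lies above all SFN libraries for HSP90AA1 and HSP90AB1, near 0 for AHSA1 and CHORDC1, and below 0 for STIP1, CDC37 and FKBP4.

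The same fit gave the other genes of the machine. Of 32 further HSP90 co-chaperones and partners of co-chaperones listed, 30 were tested, 4 were increased, 0 were decreased and 26 were not called, with a median log2 fold change of 0.11. Over all tested genes, 9.07% were increased. PPID, the cyclophilin 40 of steroid receptor complexes, rose by 0.80 on the log2 scale (SE 0.11, edgeR quasi-likelihood adjusted p = 2.6e-04), CACYBP by 0.69, DNAJC7, a co-chaperone of both HSP70 and HSP90, by 0.50 and FLCN, which encodes folliculin, an HSP90 client and the partner of the FNIP co-chaperones, by 0.49. CACYBP and DNAJC7 had DMSO replicate 1 within the range of SFN, and their calls were lost when some other libraries were left out singly (adjusted p = 0.060 to 0.084 for CACYBP without DMSO replicates 2 to 5 or SFN replicates 1 to 4, and 0.050 to 0.051 for DNAJC7 without DMSO replicates 2, 4 or 5). Leaving out DMSO replicate 1 gave 0.96 and 0.61. NUDC, at 0.33 (adjusted p = 0.052), and RUVBL2, at 0.11, were not called. NUDC was called over all libraries with DESeq2 size factors in edgeR (adjusted p = 0.043) and with DESeq2 (adjusted p = 0.012). It was also called without DMSO replicate 1 (adjusted p = 0.012) or SFN replicate 5 (adjusted p = 0.038). Sample quality weights in limma-voom, which gave DMSO replicate 1 a weight of only 0.057, called NUDC as well (adjusted p = 5.7e-04). The list as a whole had 12 increased and 1 decreased without DMSO replicate 1, where 46.1% of all tested genes were called, and 2 increased without DMSO replicate 2, 4 or 5.

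The HSP90 proteins of other compartments are made from separate genes. HSP90B1, which encodes GRP94 of the endoplasmic reticulum, was 2774 ± 459 CPM in DMSO and 3632 ± 215 CPM in SFN (SD, n = 5 each), with a log2 fold change of 0.39 (SE 0.13, edgeR quasi-likelihood adjusted p = 0.0448). The call was lost when any library other than DMSO replicate 1 was left out (adjusted p = 0.064 to 0.11), and without DMSO replicate 1 it was 0.49 (adjusted p = 1.3e-04). TRAP1, the mitochondrial form, had a log2 fold change of 0.15 and was not called (adjusted p = 0.459).

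Among 20 heat shock genes that HSF1 is known to induce, 15 were increased and 0 decreased, with a median log2 fold change of 1.31. The groups did not overlap for 12 of them. Over all tested genes 9.07% were increased, 13.9% were decreased and the groups did not overlap for 19.9%, with a median of -0.03. The HSP70 genes HSPA6 (6.28), HSPA1B (4.34) and HSPA1A (3.84) and the HSP70 co-chaperone gene BAG3 (2.52) had the largest log2 fold changes, and each was larger than that of any member. HSPA1A and HSPA1B are near-identical, so reads could be split between them. UBB (0.41) and HSPB1 (0.55) were not called over all libraries and were 0.86 and 0.88 without DMSO replicate 1, with adjusted p = 6.5e-04 and 6.9e-04. Of 4 other HSF family and HSF-binding genes tested, 0 were called by edgeR's quasi-likelihood test and 0 had an unadjusted p under 0.05, and HSBP1, which encodes a protein that binds HSF1, had a log2 fold change of 0.28. HSBP1 was called without DMSO replicate 1 (0.46, adjusted p = 0.0041), as the single gene of these 4. Without that library 46.1% of all tested genes were called, against 23.0% over all libraries. AIPL1 and HSF5 had at most 2 counts and were not tested, and UNC45B was not analysed here.

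The genes whose log2 CPM followed HSP90AA1 most closely over the 10 libraries, among 10039 genes of at least 5 CPM, were SLU7 (Pearson's r = 0.996), ANKRD11 (0.995), MTDH (0.991), ARID4A (0.990) and EIF2S2 (0.988). Those closest to HSP90AB1 were TLCD2 (0.996), SNW1 (0.993), EIF5 (0.990), RBBP6 (0.989) and LMO4 (0.986). All 10 of these genes were also higher in DMSO replicate 1 than in the other DMSO libraries, by 1.47 to 6.22 times, and all 10 missed the threshold between the groups. The libraries share that displacement and the treatment, so these correlations are a description of the pattern. Without DMSO replicate 1 each r was between 0.979 and 0.997. The genes were picked for a high r over libraries that include the remaining ones, so this range is no separate support.

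Reads of HSP90AA1 and HSP90AB1 can also match processed pseudogenes. The most counted of these, HSP90AA2P, had 135 to 691 counts, which were between 0.168% and 0.233% of the HSP90AA1 count in every library, DMSO replicate 1 included. All HSP90 pseudogenes together held 0.17% to 0.236% of the counts of the HSP90AA1 and HSP90AB1 genes, so their counted share was small beside the differences given above. These counts do not show how many reads matched a gene and a pseudogene equally well.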

How the data were processed

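The authors sequenced Lexogen QuantSeq libraries of RPE-1 cells and processed the reads with the Bluebee pipeline. The submitters' processing notes name FastQC, STAR, featureCounts and edgeR with hg38/GRCh38. The labels mention only Illumina library preparation. Raw counts for each Ensembl gene were deposited, not normalized and with replicates separate. Versions and use of strand are not given in the sources used here.

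Counts were filtered with filterByExpr, scaled by TMM and compared with glmQLFit and glmQLFTest of edgeR 4.0.16 (R 4.3.3), with Benjamini-Hochberg adjustment. The authors' repeated-measures model was not run, since the repeated factor is not defined. Alternatives used limma 3.58.1, DESeq2 1.42.0, other scalings and filters, a replicate block and leaving out each replicate. Scripts were tested on simulated data. GENCODE 44 held 28145 of the 28380 identifiers. RefSeq promoters were searched for 8 of 10 members, with chromosome 8 left out.

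Members and lists were chosen with earlier results of these data known. All members are named, with up to 4 called and 2 uncalled genes of each list, and the 5 genes most like HSP90AA1 and HSP90AB1. Depth was 12375860 to 20666692 counts a library.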

Additional observations from a re-analysis of the deposited data

Results flagged for a closer look

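Of 56 groups of 5 libraries examined, 14 had a library far from the others by Dixon's criterion (the gap to the nearest library divided by the range, above 0.71). About 3 would be expected if the groups were independent. They are not, since the genes share the same libraries and a single odd library can be flagged many times. In 12 of the 14 the library was DMSO replicate 1. The spread of HSP90AA1 in DMSO was known when the genes were chosen, so its value and that of its ratio to HSP90AB1 are a description and not independent entries in this count. Among the members the groups were those of HSP90AA1 (0.949, at 22764 CPM against 4722 to 5642 CPM), HSP90AB1 (0.837), STIP1 (0.883, where it was the lowest library) and HSF2 (0.738), each in DMSO. DMSO replicate 1 was also far from the others in the HSP90AA1 to HSP90AB1 count ratio (0.932) and in CACYBP (0.913), DNAJC7 (0.873), HSP90B1 (0.844), TRAP1 (0.766), UBB (0.908), HSPB1 (0.873) and HSBP1 (0.721). The others were NUDC in DMSO (0.779, replicate 5 at 407 CPM against 486 to 509 CPM) and BAG3 in SFN (0.722, replicate 5 at 611 CPM against 677 to 702 CPM).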

How the results depend on the processing

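Over 209 combinations of a member with an alternative, 196 kept the direction and the side of the threshold, 7 became significant and 6 lost significance. The 6 were all CDC37, which was not called with scaling by library size alone, with quantile-normalized limma-voom, with no low-count filter or without DMSO replicate 5, SFN replicate 1 or SFN replicate 4. DESeq2 gave HSP90AA1 no adjusted p. AHSA1, STIP1, PTGES3 and CHORDC1 were called in all 21 alternatives. The number of members called ranged from 4 to 8, the latter with sample quality weights in limma-voom, where HSP90AA1, HSP90AB1 and HSF1 (0.20, adjusted p = 0.044) were added. DMSO replicate 1 had a weight of 0.057 there, and the other libraries had 0.40 to 2.89. That setting is thus close to leaving DMSO replicate 1 out and is not separate support. The number of genes called was 7915 with quality weights, 6251 without DMSO replicate 1 and 6379 without DMSO replicate 1 and SFN replicate 2, against 3076, and 2383 to 6251 without single replicates. When single replicates were left out the range is given in parentheses. Co-chaperones called were 16 with quality weights and 12 without both those libraries (2 to 13). Organelle HSP90 genes called were 0 with upper-quartile factors, quantile-normalized limma-voom, no filter or a replicate block, and 2 with quality weights (0 to 1). Of the other HSF genes 1 was called with quality weights and without both libraries (0 to 1). The HSP90AA1 to HSP90AB1 log2 ratio difference was 0.31 without both libraries (exact permutation p = 0.029, not adjusted). That value is a description, since the spread of HSP90AA1 in DMSO was known beforehand. The difference ranged from 0.032 to 0.38 when single replicates were left out. HSBP1L1, at 0.017 and never called, was -0.059 by library size alone, -0.015 with upper-quartile factors, -0.0045 with the replicate block, -0.039 without both libraries and -0.16 to 0.13 without single replicates. The cause of these differences was not tested. The median of all genes was -0.11 by library size alone against -0.028.

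Same-numbered DMSO and SFN libraries deviated together for number 5 (r = 0.48) but not for number 2 (-0.27), with 0.039, -0.060 and 0.031 for the others. These correlations cannot show whether the libraries were paired, and the authors' analysis accounted for repeated measures. The main fit was run without pairing. A replicate block called 2441 genes and 5 members, gave HSP90AA1 a log2 fold change of 0.64 (adjusted p = 0.213), and gave p = 0.625 and p = 0.25 for the HSP90 and HSF ratios by an exact permutation of signs. With 5 pairs that permutation cannot give a two-sided p under 0.05, so it could not have called either ratio.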
